A study of Mus musculus with 12 samples.

Results

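The 9 genes of the IL-17, IL-22 and IL-10 axis described here were measured in whole colon of mice with and without dextran sulfate sodium (DSS) colitis. They were the rows of the deposited gene table named Il17a, Il17f, Il22, Il10, Il17ra, Il17rc, Il22ra1, Il22ra2 and Il10ra, 9 of the 54532 genes in the table. They were chosen by name, with earlier results of these data known. All 9 were among the 24102 genes that reached 0.1 FPKM (fragments scaled to gene length in kilobases and to library size) in at least 3 libraries and were tested. Il10 reached that level in 12 libraries, Il22 in 8, Il17f in 4 and Il17a in 3. The libraries that reached it for Il17f and Il17a were all colitic, so these genes passed through the groups in which they were high.

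PolyA RNA was sequenced from 4 groups of 3 libraries, 12 in all. Mice called Tmem173fl/fl, labelled WT, carried loxP-flanked alleles of Tmem173 (the STING gene) and lacked Cre. Tmem173iΔmye mice carried the same alleles with Lyz2-CreERT2, a tamoxifen-dependent Cre under the Lyz2 locus of monocytes, macrophages and neutrophils, so that deletion can occur in those cells and only after tamoxifen. Per the study's methods the mice were on a C57BL/6N background and 6 to 8 weeks old, controls included had 5 injections of tamoxifen, colitic mice drank DSS for 7 days and untreated mice drank distilled water. Colitic Tmem173iΔmye libraries carry the replicate numbers 1, 2 and 5, and all other groups 1, 2 and 3. Each group holds only 3 libraries, and the labels do not say whether they were single animals or pools.

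IL-17A and IL-17F are secreted mainly by Th17 cells, gamma delta T cells and group 3 innate lymphoid cells (ILC3), and act on epithelium and stroma through a receptor of IL-17RA and IL-17RC. IL-22 comes from the same lymphocytes, acts on epithelium through IL-22RA1 paired with IL-10RB, and is bound by IL-22RA2, a secreted decoy receptor also called IL-22 binding protein. IL-10 is made by macrophages and regulatory T cells, restrains myeloid cells through IL-10RA and IL-10RB, and mice that lack it develop colitis.

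Libraries held 13823237 to 18718915 counts, no pair of libraries was identical, and 3 of the 12 had a female pattern of Xist and Y-linked genes (untreated Tmem173fl/fl 3, untreated Tmem173iΔmye 3 and colitic Tmem173iΔmye 5). On the second principal component colitic Tmem173iΔmye 5 lay at -114, against -26.5 to 31.6 for the other libraries. On the first, which held 38.95% of the variance, it lay at -32.0, between the untreated libraries (-72.9 to -47.6) and the other colitic ones (15.6 to 120). For the genes of the axis, the tests of DSS in Tmem173iΔmye mice and of genotype with DSS are given with and without this library. The main interaction values, the tests of Tmem173 and Lyz2, and the calls in pathway and marker lists include it. Loss of Tmem173 was not detectable: its level was 41.4 ± 3.30 CPM (counts relative to the TMM-scaled library size; SD, n = 3) in Tmem173fl/fl mice on DSS and 34.2 ± 12.3 CPM in Tmem173iΔmye mice on DSS (log2 fold change -0.28, SE 0.26, edgeR adjusted p 0.602), and 1 colitic Tmem173iΔmye library, library 1 at 47.8 CPM, lay above all colitic Tmem173fl/fl libraries. Lyz2, which carries the Cre, differed by -1.01 on the log2 scale between untreated genotypes (SE 0.23, edgeR adjusted p 1) and by -0.54 between colitic ones (SE 0.25, edgeR adjusted p 0.266). In whole tissue, fewer cells of a type and less RNA per cell cannot be told apart.

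The promoters of the paired Il17a and Il17f genes are shown because the cytokines they encode are made by the same lymphocytes, and AGGTCA, a nuclear receptor element, was searched for in them. Each sequence is the 200 bases before the annotated start in a RefSeq promoter window for GRCm38.p6, or before a GENCODE start further upstream in that window. Sequences run 5′ to 3′ on the strand of the gene, with matches to AGGTCA (either strand) and TATAAA in capitals. The Il17a window is chr1:20730705-20730904 on the plus strand and the Il17f window is chr1:20784271-20784470 on the minus strand. The Il17f window lies inside the span of that gene in the deposited table (20777146 to 20790617), so its start is not the outermost one annotated.
Il17a: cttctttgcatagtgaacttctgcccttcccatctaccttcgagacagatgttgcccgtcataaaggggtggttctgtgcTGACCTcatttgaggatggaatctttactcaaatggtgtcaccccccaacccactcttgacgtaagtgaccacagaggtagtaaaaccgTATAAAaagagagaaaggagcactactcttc
Il17f: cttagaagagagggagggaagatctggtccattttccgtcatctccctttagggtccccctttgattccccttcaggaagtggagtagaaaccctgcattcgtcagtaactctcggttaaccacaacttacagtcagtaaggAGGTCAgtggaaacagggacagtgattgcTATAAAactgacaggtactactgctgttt

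Il17a held AGGTCA on the reverse strand at 120 to 115 bases before its start, and Il17f held it on the gene's own strand at 58 to 53 bases before its start. Their TATAAA matches began 31 and 29 bases before the start. Among 32851 promoter windows of the same length, 11.4% held AGGTCA and 9.96% held TATAAA on either strand, so a match alone is common. The windows of Il22, Il17rc and Il22ra1 held no AGGTCA, and none of the 5 windows held the STAT motif TTCNNNGAA (5.49% of windows) or the AP-1 motif TGANTCA (5.48%). Promoters of Il10, Il10ra, Il17ra and Il22ra2 had no match in the table. A match is only a string of letters, and binding was not measured here.

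Reads of Il22 are uncertain because the mouse genome holds a near-identical copy, Iltifb. Their coding sequences of 540 bases differed at 9 positions (98.33% identical) and shared an unbroken run of 215 bases. Bases 130 to 219 of each coding sequence are shown, with the 4 positions that differ in capitals.
Il22: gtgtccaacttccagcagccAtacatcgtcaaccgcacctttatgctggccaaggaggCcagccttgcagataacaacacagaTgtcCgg
Iltifb: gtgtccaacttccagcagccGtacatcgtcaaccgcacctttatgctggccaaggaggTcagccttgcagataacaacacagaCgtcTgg
Iltifb held 1 count over the 12 libraries, in colitic Tmem173fl/fl colon. Depending on how reads that fit both genes were counted, Il22 counts may miss such reads.

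Levels of different genes were compared as FPKM, which divides by gene length. In untreated Tmem173fl/fl colon the receptor genes stood above the cytokine genes. Il17rc was highest at 59.1 ± 11.5 FPKM (SD, n = 3 here and below), followed by Il22ra1 at 16.1 ± 2.31 FPKM. Il17ra, at 4.24 ± 1.24 FPKM, and Il10ra, at 3.44 ± 0.783 FPKM, overlapped in range. Il22ra2, at 1.41 ± 0.312 FPKM, overlapped Il10, at 0.877 ± 0.615 FPKM. Il22, Il17f and Il17a came last and overlapped each other, at 0.0737, 0.0412 and 0.0188 FPKM.

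The order changed with DSS at its lower end. In colitic Tmem173fl/fl colon Il17rc was still the highest, at 20.8 ± 0.619 FPKM, while the other receptor genes Il22ra1, Il17ra and Il10ra lay next to each other at 11.1, 7.91 and 7.47 FPKM. There Il22ra2, at 0.183 ± 0.0909 FPKM, overlapped Il22, at 0.355 ± 0.155 FPKM, where in untreated mice it had been above it in each library. In colitic Tmem173iΔmye colon Il22 averaged 1.29 ± 0.998 FPKM and overlapped both Il10, at 0.677 ± 0.236 FPKM, and Il22ra2, at 0.285 ± 0.264 FPKM.

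**Figure D1:**
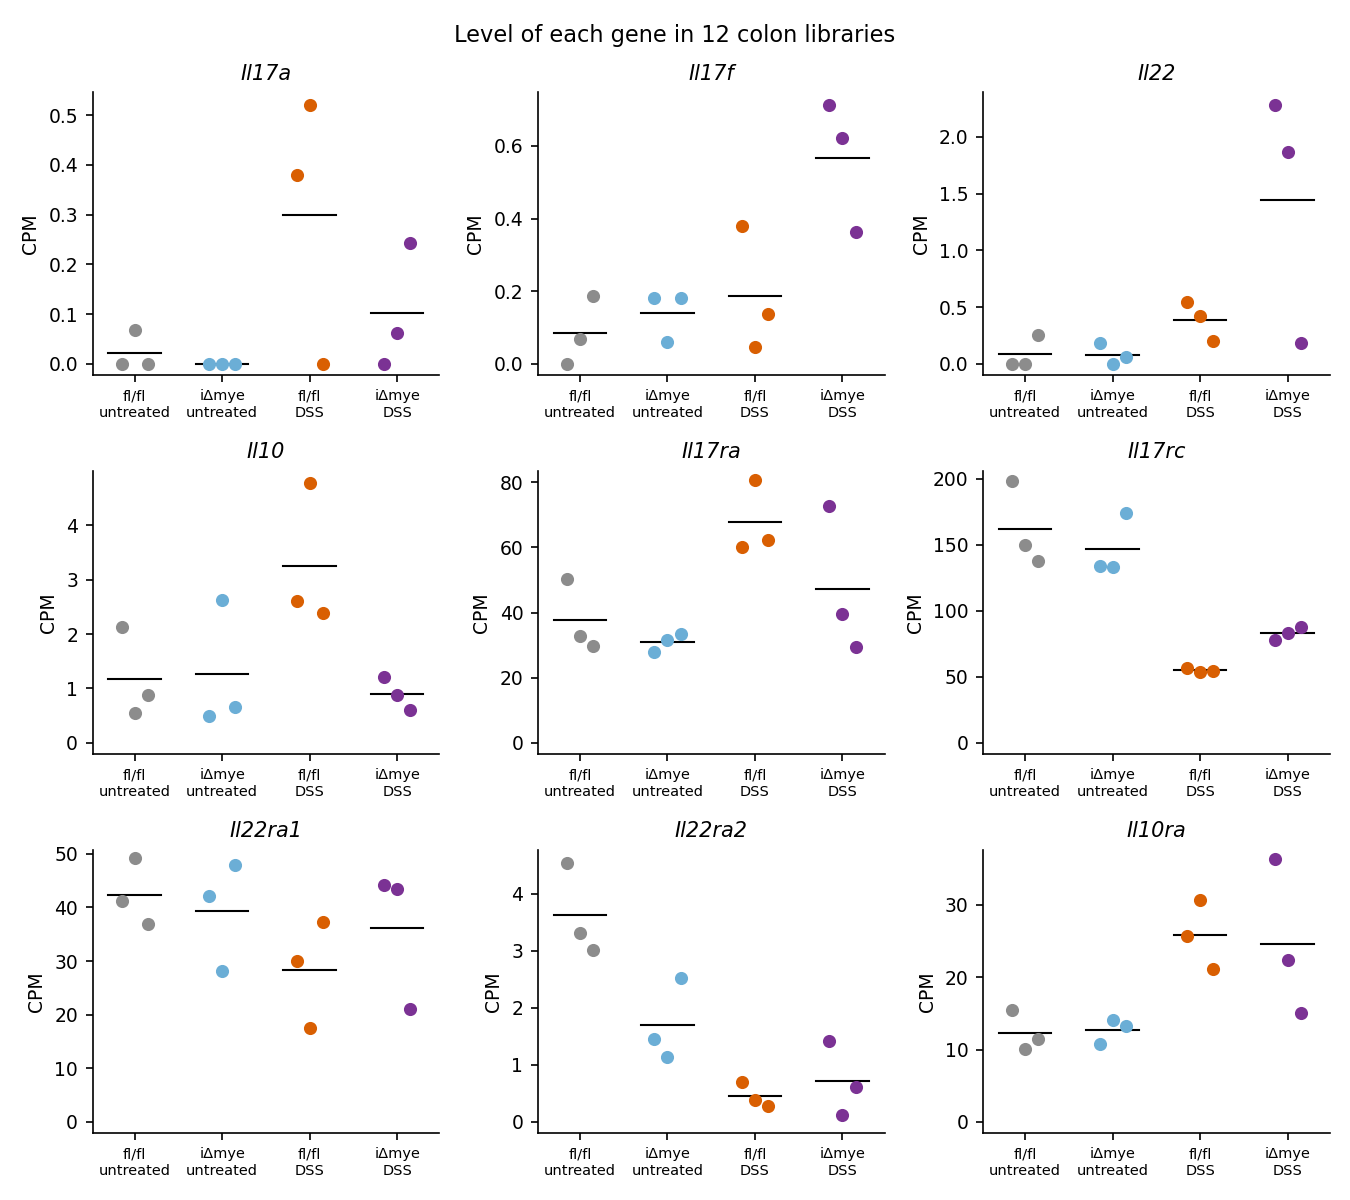
Level of each of the 9 genes in CPM (vertical axes, each starting at or just under 0 with its own scale) in the 12 libraries, grouped by genotype and treatment. Points are libraries in order of replicate number and black lines are group means. The receptor gene Il17rc separated treated from untreated libraries in both genotypes, while the points of Il17a, Il17f and Il22 were at or near 0 in untreated mice.

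The first comparison asked what DSS did to the axis in Tmem173fl/fl mice. Calls needed both a p under 0.05 after Benjamini-Hochberg adjustment over all genes tested (edgeR quasi-likelihood) and a change of 1 or more, up or down, on the log2 scale. Il10 and Il10ra rose, Il17rc and Il22ra2 fell, and the other 5 genes were not called. That is 4 of 9, where 22.5% of all tested genes were called (14.9% higher and 7.61% lower). Of the 9 genes, 6 had an unadjusted p under 0.05 (44.5% of all genes). The groups did not overlap for 5 of 9 genes (49.3% of all genes), Il10, Il17ra and Il10ra being higher with DSS and Il17rc and Il22ra2 lower. The median log2 fold change of the 9 genes was 1.06, against 0.03 over all genes, but it is the value of Il17f, which rests on 10 against 4 counts.

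Il17a, the signature Th17 cytokine, was counted 0, 1 and 0 times in the untreated Tmem173fl/fl libraries 1 to 3 and 7, 11 and 0 times in the colitic ones. Those are 0, 0.0677 and 0 CPM against 0.379, 0.521 and 0 CPM. One colitic library thus held no count, and the groups overlapped. The ratio of summed counts was 14.6 with an exact 95% counting interval of 2.30 to 607, which covers counting error only. The fitted log2 fold change was 3.46 (SE 1.43, edgeR adjusted p 0.0883), not called. With 1 count the untreated group was at the floor of 3 counts, so the size of this fold is uncertain. Without colitic library 3, the one with no count, the log2 fold change was 3.97 and called (edgeR adjusted p 0.0263, range over 16 alternatives 0.0263 to 0.246). Il17a was also called at a looser threshold the study states, an unadjusted p of at most 0.05 with the same fold minimum (edgeR unadjusted p 0.0368).

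Il17f, whose product forms dimers with IL-17A, stayed near the limit of detection in Tmem173fl/fl mice. It was counted 0, 1 and 3 times without DSS and 7, 1 and 2 times with it, so the groups overlapped. Il17f differed by 1.06 on the log2 scale (SE 1.14, edgeR adjusted p 0.511).

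Il22, the epithelial repair cytokine, was at 0, 0 and 0.251 CPM without DSS and at 0.542, 0.426 and 0.204 CPM with it. Untreated library 3, with 4 counts, was above colitic library 3, with 3. The log2 fold change was 2.12 (SE 1.07, edgeR adjusted p 0.153), not called. Without untreated library 3, which left a group of 0 counts, the difference was called (edgeR adjusted p 0.0348; range over 16 alternatives 0.0348 to 0.33).

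Il10, the anti-inflammatory cytokine of the set, rose. Its level was 2.12, 0.542 and 0.877 CPM in untreated libraries 1 to 3 and 2.60, 4.78 and 2.38 CPM in colitic ones. All 3 colitic libraries were above all untreated ones, with a narrow gap between untreated 1 and colitic 3. Its log2 fold change was 1.55 (SE 0.51, edgeR adjusted p 0.0371). The call rested on single libraries: without untreated 2 the change was 1.20 (edgeR adjusted p 0.107), without untreated 3 it was 1.39 (0.125), without colitic 1 it was 1.67 (0.0525) and without colitic 2 it was 1.14 (0.133; range over 16 alternatives 0.00882 to 0.133).

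Both subunits of the IL-17 receptor were well measured, and they moved in different directions. Il17rc, the subunit found chiefly on epithelium and stroma, fell: 199, 150 and 138 CPM without DSS against 56.7, 53.6 and 54.7 CPM with it. The groups were far apart, and the colitic libraries lay close to each other. Its log2 fold change was -1.49 (SE 0.16, edgeR adjusted p 7.51e-05). Il17ra, the widely expressed common subunit, was at 50.4, 32.8 and 29.7 CPM without DSS and at 60.2, 80.8 and 62.4 CPM with it. The groups did not overlap, and the log2 fold change of 0.92 (SE 0.21, edgeR adjusted p 0.00672) passed the p threshold and fell short of the fold minimum. Without untreated library 1 it was 1.19 and called (edgeR adjusted p 0.00140; range over 16 alternatives 0.000373 to 0.0370).

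The IL-22 receptor genes differed from each other. Il22ra1, the signalling subunit of epithelium, was at 41.1, 49.1 and 37.0 CPM without DSS and at 30.1, 17.5 and 37.2 CPM with it, and colitic library 3 overlapped the untreated range (log2 fold change -0.52, SE 0.24, edgeR adjusted p 0.129). Il22ra2, the decoy, fell from 4.54, 3.32 and 3.01 CPM to 0.704, 0.379 and 0.272 CPM. It had the largest called change of the 9 genes in this comparison, and every colitic library was below every untreated one. Its log2 fold change was -2.89 (SE 0.42, edgeR adjusted p 0.000521).

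Il10ra, the ligand-binding chain of the IL-10 receptor on leukocytes, rose. Its level was 15.5, 10.02 and 11.5 CPM without DSS and 25.7, 30.7 and 21.2 CPM with it, with no overlap. Its log2 fold change was 1.14 (SE 0.22, edgeR adjusted p 0.00253). Without colitic library 2 it was 0.98, under the fold minimum (edgeR adjusted p 0.00684; range over 16 alternatives 1.87e-05 to 0.0146).

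Markers of cell types moved with these genes, and their part in the results was not tested. Their counts stand against 14.9% of all genes called higher and 7.61% called lower. Of 9 epithelial markers 6 fell with DSS in Tmem173fl/fl mice, as Il17rc did. Their summed level was 12422 to 15572 CPM without DSS and 4469 to 7741 CPM with it, and no marker was at 0. Of 8 colonocyte and goblet cell markers 5 fell and 1 rose, with sums of 19579 to 33214 CPM and 9601 to 15952 CPM. Fibroblast markers went the other way from Il17rc: 6 of 6 rose, with sums of 1179 to 1379 CPM and 7971 to 10150 CPM. Of 11 monocyte and macrophage markers 8 rose, as Il10 and Il10ra did, with sums of 442 to 645 CPM and 1239 to 1681 CPM. Of 6 regulatory T cell markers 3 rose, with sums of 22.9 to 37.3 CPM and 43.8 to 88.7 CPM. Of 7 markers of dendritic cells, which are known to make IL-22 binding protein, 3 rose and 1 fell, with sums of 36.4 to 48.9 CPM and 36.4 to 71.2 CPM. None of 12 T cell markers was called by edgeR, with sums of 135 to 167 CPM and 62.8 to 186 CPM. Of 5 gamma delta T cell markers 1 rose and 1 fell, with sums of 61.0 to 86.4 CPM and 56.6 to 70.9 CPM. Of 5 markers of type 17 lymphocytes and ILC3 2 rose and 1 fell, with sums of 123 to 143 CPM and 72.3 to 84.1 CPM. Most of the mean sum in each group came from the marker that fell.

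DSS in Tmem173iΔmye mice was the second comparison. None of the 9 genes was called by edgeR, where 2.08% of all genes were called, and 4 of 9 had an unadjusted p under 0.05 (15.6% of all genes). DESeq2 called Il22 alone (4.72% of all genes). The groups did not overlap for 4 of 9 genes (21.5% of all genes), Il17f, Il22 and Il10ra being higher with DSS and Il17rc lower. For Il22 the lowest colitic and the highest untreated library both held 3 counts, and they were apart in CPM but not in FPKM. The median log2 fold change was 0.61, against 0.02 over all genes. Without colitic library 5, Il22 and Il10ra were called, 2 of 9 where 6.09% of all genes were called.

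Il22 was at 0.182, 0 and 0.0601 CPM in untreated Tmem173iΔmye libraries 1 to 3 and at 2.28, 1.87 and 0.182 CPM in colitic libraries 1, 2 and 5. Libraries 1 and 2 held 32 and 30 counts and library 5 held 3, as many as untreated library 1. The ratio of summed counts was 17.4 (exact 95% counting interval 6.47 to 65.7). The log2 fold change was 4.03 (SE 1.07, edgeR adjusted p 0.0937), and without library 5 it was 4.59 (SE 0.79, edgeR adjusted p 0.00536; range over 16 alternatives 0.00536 to 0.349).

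Il17f showed the same split of the colitic libraries to a lesser degree. It was at 0.182, 0.0599 and 0.180 CPM without DSS and at 0.713, 0.622 and 0.364 CPM with it, or 10, 10 and 6 counts. The ratio of summed counts was 3.97 (exact 95% counting interval 1.68 to 10.8), and the log2 fold change was 1.94 (SE 0.76, edgeR adjusted p 0.249). Il17a had 0 counts in all untreated Tmem173iΔmye libraries and 0, 1 and 4 in the colitic ones. With the untreated group set at a floor of 3 counts the ratio was 1.78, and the exact 95% lower counting limit of the ratio was 0.98. The groups overlapped, and the fitted test did not call the gene (edgeR adjusted p 0.402).

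Il10 was not called in this genotype. It was at 0.485, 2.63 and 0.661 CPM without DSS and at 1.21, 0.871 and 0.607 CPM with it (log2 fold change -0.50, SE 0.67, edgeR adjusted p 0.778). Untreated library 2 lay above all colitic libraries and the others within or under their range, and without it the change was 0.63 (edgeR adjusted p 0.729; range over 16 alternatives 0.708 to 0.944).

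Of the receptor genes, Il17rc was lower in every colitic library: 134, 133 and 174 CPM without DSS against 77.8, 83.2 and 88.0 CPM with it. The log2 fold change was -0.83 (SE 0.19, edgeR adjusted p 0.0589). Il10ra was at 10.7, 14.1 and 13.2 CPM without DSS and at 36.3, 22.4 and 15.1 CPM with it, library 1 the highest and library 5 the lowest of the colitic ones (log2 fold change 0.95, SE 0.32, edgeR adjusted p 0.178). Without library 5 its log2 fold change was 1.24 (edgeR adjusted p 0.0161; range over 16 alternatives 0.0161 to 0.506). Il17ra was at 27.8, 31.5 and 33.4 CPM against 72.8, 39.6 and 29.6 CPM, with overlap (log2 fold change 0.61, SE 0.30, edgeR adjusted p 0.371).

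The IL-22 receptor genes were not called either. Il22ra1 was at 42.1, 28.1 and 47.9 CPM against 44.1, 43.5 and 21.0 CPM (log2 fold change -0.12, SE 0.31, edgeR adjusted p 0.892). Il22ra2 was at 1.46, 1.14 and 2.52 CPM without DSS and at 1.43, 0.124 and 0.607 CPM with it. Colitic library 1 held as much of the decoy gene as untreated ones, and the log2 fold change was -1.26 (SE 0.70, edgeR adjusted p 0.437).

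Marker sums moved with DSS in Tmem173iΔmye mice too and differed among the colitic libraries, and their part in the results was not tested. Epithelial markers summed to 13209 to 15647 CPM without DSS and 9901 to 11761 CPM with it, apart like Il17rc, with 0 of 9 called by edgeR. Monocyte and macrophage markers summed to 403 to 535 CPM and 775 to 1091 CPM, apart like Il10ra, and 2 of 11 rose. Fibroblast markers summed to 1142 to 1455 CPM and 2298 to 3368 CPM, and 1 of 6 rose. In libraries 1, 2 and 5 the T cell markers summed to 206, 104 and 45.04 CPM, the dendritic cell markers to 106, 53.4 and 21.2 CPM, and the 4 leukocyte markers to 700, 281 and 219 CPM. No marker of these lists was at 0 in all 3 libraries. Pancreas acinar markers, foreign to colon, summed to 11095, 121 and 222 CPM and ranged from 103 to 11095 CPM over the 12 libraries.

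Without colitic library 5 the 7 other genes were still not called. Il17rc was at -0.84 on the log2 scale and passed the p threshold but not the fold minimum (edgeR adjusted p 0.0319), and Il17ra was at 0.89 (0.0570). Il17f was at 2.21 (edgeR adjusted p 0.144), Il10 at -0.25 (0.887) and Il22ra2 at -1.12 (0.446). The sign of Il22ra1 turned, to 0.18 (edgeR adjusted p 0.717). For Il17a, then with 1 count in the colitic group, the edgeR adjusted p was 0.594.

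**Figure D2:**
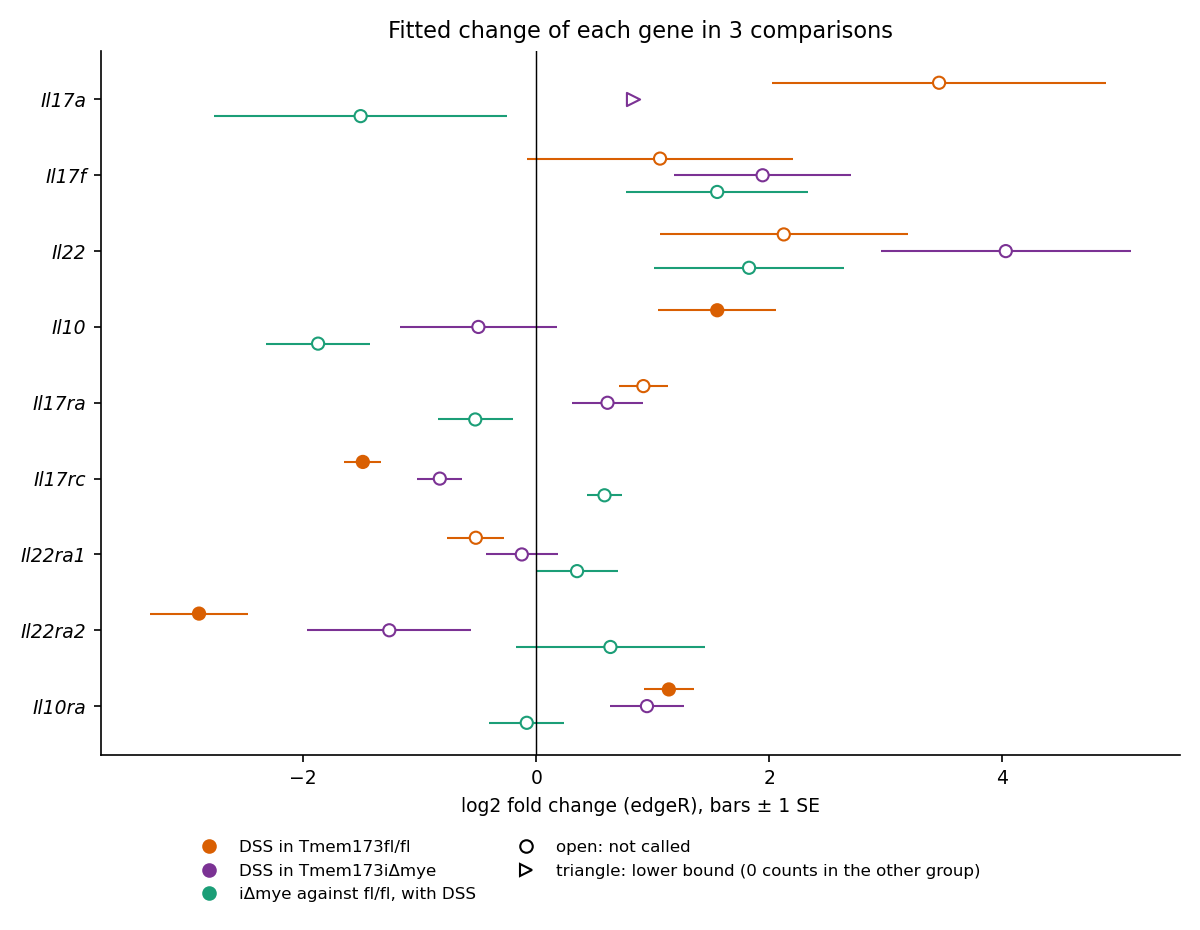
Fitted log2 fold change of each of the 9 genes (horizontal axis; edgeR) for DSS in each genotype and for genotype with DSS. Bars are 1 SE, filled points were called, open points were not, and the triangle is Il17a with untreated Tmem173iΔmye mice, which had 0 counts, set at the floor. The called points are Il10, Il17rc, Il22ra2 and Il10ra, all for DSS in Tmem173fl/fl mice.

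Genotype was compared next within each treatment. Without DSS none of the 9 genes was called by edgeR, and 0.0% of all genes were. One of 9, Il22ra2, had an unadjusted p under 0.05 (2.99% of all genes), and DESeq2 called none of the 9. Il22ra2 was at 1.46, 1.14 and 2.52 CPM in Tmem173iΔmye libraries and at 4.54, 3.32 and 3.01 CPM in Tmem173fl/fl libraries, so the groups did not overlap, which held for 1 of 9 genes (7.35% of all genes). Its log2 fold change was -1.07 (SE 0.37, edgeR adjusted p 1). The median over the 9 genes was -0.12, against -0.00 over all genes.

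With DSS the genotypes differed in no gene of the set by the edgeR call, where 2.81% of all genes were called. Il10 and Il17rc had an unadjusted p under 0.05, 2 of 9 (20.2% of all genes). Il10 was lower in every colitic Tmem173iΔmye library and Il17rc higher, so that groups did not overlap for 2 of 9 genes (26.8% of all genes). DESeq2 called Il10 alone (6.72% of all genes). The median of the 9 log2 fold changes was 0.35, against 0.02 over all genes.

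Among the cytokine genes Il10 was at 1.21, 0.871 and 0.607 CPM in colitic Tmem173iΔmye libraries 1, 2 and 5 and at 2.60, 4.78 and 2.38 CPM in colitic Tmem173fl/fl libraries. Every library of the first group was below every library of the second. Fitted over the 6 libraries the log2 fold change was -1.87 (SE 0.45, edgeR adjusted p 0.0631). Without Tmem173iΔmye library 1 it was -2.16 and called (edgeR adjusted p 0.0478, with 6.61% of all genes called; range over 16 alternatives 0.00546 to 0.235). Monocyte and macrophage markers also did not overlap, with sums of 775 to 1091 CPM in colitic Tmem173iΔmye and 1239 to 1681 CPM in colitic Tmem173fl/fl libraries and 1 of 11 called lower. Regulatory T cell marker sums were 43.4 to 65.0 CPM and 43.8 to 88.7 CPM. The part of either list in the result was not tested.

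With DSS, Il22 and Il17f had more counts in Tmem173iΔmye than in Tmem173fl/fl colon, and Il17a had fewer. Il22 summed to 65 against 22 counts (ratio 3.44, exact 95% counting interval 2.09 to 5.86), though library 5 at 0.182 CPM lay below all Tmem173fl/fl libraries (log2 fold change 1.83, SE 0.82, edgeR adjusted p 0.255). Il17f summed to 26 against 10 counts (ratio 3.03, exact 95% counting interval 1.41 to 7.04; log2 fold change 1.55, SE 0.78, edgeR adjusted p 0.310). Il17a summed to 5 against 18 counts (ratio 0.324, exact 95% counting interval 0.0939 to 0.904; log2 fold change -1.51, SE 1.26, edgeR adjusted p 0.542). These intervals treat counts as independent and leave out the spread between libraries, which the fitted tests include.

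Receptor genes differed less. Il17rc was at 77.8, 83.2 and 88.0 CPM in Tmem173iΔmye mice and at 56.7, 53.6 and 54.7 CPM in Tmem173fl/fl mice on DSS, with no overlap, a log2 fold change of 0.59 (SE 0.15) and an edgeR adjusted p of 0.0741. Epithelial marker sums were 9901 to 11761 CPM and 4469 to 7741 CPM in the same groups, with 0 of 9 markers called by edgeR. Colonocyte and goblet cell markers summed to 12647 to 22572 CPM and 9601 to 15952 CPM, with 3 of 8 called higher in Tmem173iΔmye mice (Slc26a3, Car4 and Clca1). Fibroblast markers summed to 2298 to 3368 CPM and 7971 to 10150 CPM, with 5 of 6 called lower. The part of these lists was not tested. Il17ra (log2 fold change -0.52, SE 0.32, edgeR adjusted p 0.401), Il22ra1 (0.35, SE 0.35, 0.620), Il22ra2 (0.64, SE 0.81, 0.704) and Il10ra (-0.08, SE 0.32, 0.920) overlapped between genotypes. Without Tmem173iΔmye library 5 none of the 9 genes was called by edgeR in this comparison. Il22 was then at 2.35 on the log2 scale (SE 0.49, edgeR adjusted p 0.0581), Il10 at -1.66 (0.118), Il17f at 1.79 (0.298) and Il17rc at 0.54 (0.0962), and Il17a had an edgeR adjusted p of 0.378. Il17ra was at -0.28 (edgeR adjusted p 0.644), Il22ra1 at 0.62 (0.305) and Il22ra2 at 0.73 (0.717), and Il10ra turned to 0.17 (0.773). The sign of the Il22ra2 difference came from Tmem173iΔmye library 1, without which it was -0.32 (edgeR adjusted p 0.850; range over 16 alternatives 0.434 to 0.992).

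Whether DSS acted differently in the genotypes was tested with an interaction term over all 12 libraries. None of the 9 genes was called by edgeR or DESeq2, where edgeR called 2.55% of all genes, and 2 of 9 had an unadjusted p under 0.05 (18.1% of all genes). These were Il10, with an interaction of -1.98 on the log2 scale (SE 0.91, edgeR adjusted p 0.269), and Il17rc, with 0.73 (SE 0.24, edgeR adjusted p 0.117). For Il22ra2 the interaction was 1.70 (SE 0.87, edgeR adjusted p 0.324) and for Il22 1.97 (SE 1.79, edgeR adjusted p 0.608). Il22 turned to -1.68 without untreated Tmem173fl/fl library 3, which held all 4 counts of its group (edgeR adjusted p 0.743; range over 21 alternatives 0.428 to 0.752). Il17a had too few untreated counts for a fold to be given.

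IL-22 and its decoy were set side by side in each library. In untreated Tmem173fl/fl libraries the decoy gene had 60, 49 and 48 counts and Il22 had 0, 0 and 4. In colitic ones the decoy had 13, 8 and 4 counts and Il22 had 10, 9 and 3. In untreated Tmem173iΔmye libraries the decoy had 24, 19 and 42 counts and Il22 had 3, 0 and 1. The 2 colitic Tmem173iΔmye libraries with the most Il22 differed in the decoy: library 1 had 32 counts of Il22 and 20 of Il22ra2, and library 2 had 30 and 2. Library 5 had 3 and 10.

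**Figure D3:**
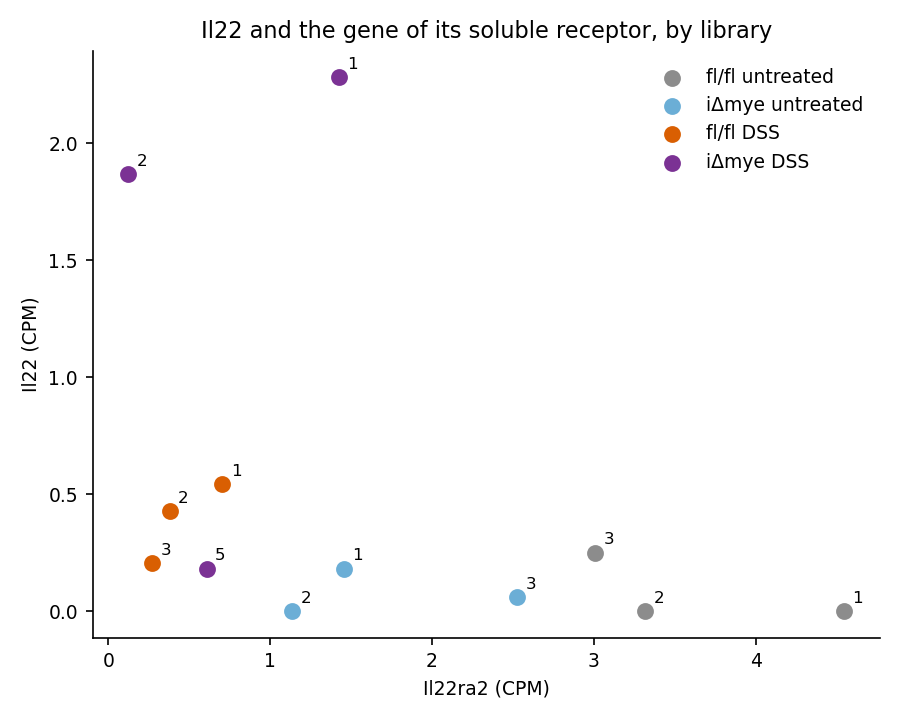
Level of Il22 (vertical axis, CPM) against that of its decoy gene Il22ra2 (horizontal axis, CPM) in 12 libraries, coloured by group and numbered by replicate. Untreated Tmem173fl/fl libraries lie at the lower right, colitic Tmem173fl/fl libraries at the lower left, and colitic Tmem173iΔmye libraries 1 and 2 at the top, at 2.28 and 1.87 CPM of Il22.

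The remaining genes of the pathway were described by lists. Their counts stand against a background of 22.5% (DSS, Tmem173fl/fl), 2.08% (DSS, Tmem173iΔmye) and 2.81% (colitic genotypes) of all genes. In Tmem173fl/fl mice DSS raised 2 and lowered 1 of 7 other IL-17 family genes. Il17c, an epithelial IL-17 family cytokine, rose (edgeR adjusted p 0.0253), from 2 counts, all in 1 untreated library, to 27 counts (ratio 10.9, exact 95% counting interval 2.75 to 94.9). Il17rb, a receptor for IL-25, fell (log2 fold change -1.02, SE 0.27, edgeR adjusted p 0.0142). Il17b, at 0 counts in all untreated libraries, rose to 12 counts. With the untreated group set at a floor of 3 counts its ratio was 3.24. Of 10 other IL-10 family genes 7 were tested and 3 rose. Il20ra (3.38, SE 0.72, 0.00471) and Il20rb (2.09, SE 0.29, 0.000419), the receptor pair of IL-19, IL-20 and IL-24, rose. Il19, at 0 counts in all untreated libraries, rose to 111 counts, a ratio of 30.0 with the untreated group set at the same floor. In Tmem173iΔmye mice 0 of the 7 IL-17 family genes was called by edgeR and only Il19 of the IL-10 family genes was. It rose from 0 to 34 counts with DSS, a ratio of 12.1 with the untreated group set at the floor.

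Signalling components below the receptors were called in part. Of 12 genes of IL-17 receptor signalling 4 rose in Tmem173fl/fl mice (33.3%, against 14.9% of all genes called higher): Cebpb (3.45, SE 0.25, edgeR adjusted p 6.92e-06) and Cebpd (3.15, SE 0.25, 1.22e-05), transcription factors induced by IL-17, Zc3h12a (1.59, SE 0.16, 4.80e-05), an RNase that limits IL-17 signals, and Arid5a (1.84, SE 0.19, 5.75e-05), an RNA-binding protein that stabilises target transcripts. Zc3h12a (1.57, SE 0.25, edgeR adjusted p 0.0127) and Cebpd (1.55, SE 0.25, 0.0137) also rose in Tmem173iΔmye mice. Between colitic genotypes Cebpb (-1.88, SE 0.21, edgeR adjusted p 0.00990) and Cebpd (-1.68, SE 0.22, 0.0137) were lower in Tmem173iΔmye colon, and their interaction was called as well. Of 6 genes of IL-10 and IL-22 signalling, the feedback inhibitor Socs3 (4.13, SE 0.20, edgeR adjusted p 9.27e-07) and Stat3 (1.06, SE 0.15, 0.000362), the factor both cytokines activate, rose with DSS in Tmem173fl/fl mice. In Tmem173iΔmye mice Socs3 rose (2.55, SE 0.41, edgeR adjusted p 0.0145) and the other 5 were not called.

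Most genes known to be induced by IL-17 rose with DSS in both genotypes. Of 11 on the list, 10 rose in Tmem173fl/fl mice (median log2 fold change 7.80 against 0.03 over all genes) and 9 rose in Tmem173iΔmye mice (4.52 against 0.02). Lcn2, an iron-sequestering antimicrobial protein, went from 2.31 ± 0.228 to 767 ± 307 CPM in Tmem173fl/fl mice (8.44, SE 0.39, edgeR adjusted p 7.05e-07). The neutrophil chemokines Cxcl1 (7.96, SE 0.44, edgeR adjusted p 1.69e-06) and Cxcl2 (7.80, SE 0.40, 1.22e-06) and the metalloreductase Steap4 (4.09, SE 0.26, 3.48e-06) also rose. In Tmem173iΔmye mice the smallest p belonged to Cxcl1 (4.51, SE 0.36, edgeR adjusted p 0.000619), Cxcl5, Cxcl2 and Il6. Neutrophil markers also rose with DSS, 7 of 7 tested in Tmem173fl/fl mice and 4 of 7 in Tmem173iΔmye mice. Their sums went from 46.3 to 106 CPM to 427 to 707 CPM in Tmem173fl/fl mice. In Tmem173iΔmye mice they went from 45.7 to 81.3 CPM to 195 to 308 CPM. Their part in the rise was not tested.

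Between colitic genotypes 7 of the 11 IL-17 targets were lower in Tmem173iΔmye mice (median -2.31 against 0.02 over all genes). Cxcl1 was at 13.4 ± 2.05 CPM in Tmem173iΔmye mice on DSS against 66.5 ± 29.3 CPM in their controls (-2.31, SE 0.33, edgeR adjusted p 0.0167). S100a8, a neutrophil and epithelial alarmin, was at 14.7 ± 10.5 CPM against 97.9 ± 10.4 CPM (-2.75, SE 0.47, edgeR adjusted p 0.0264). Many genes of this list respond to other cytokines too and several are made by neutrophils. Neutrophil markers summed to 195 to 308 CPM in Tmem173iΔmye and 427 to 707 CPM in Tmem173fl/fl mice on DSS, with 4 of 7 tested called lower, and their part was not tested. The called markers S100a8 and S100a9 are on both lists, so the lists are not independent. Of the 7 markers 6 were lower, and Ly6g was higher, at 186 ± 74.2 against 154 ± 65.1 CPM, and not called.

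Epithelial IL-22 targets were called in part. In Tmem173fl/fl mice 8 of 13 rose (median 3.64), 4 of them Lcn2, Socs3, S100a8 and S100a9, which other lists share. Reg3g, an antimicrobial lectin, went from 1.96 ± 1.39 to 234 ± 58.6 CPM (6.93, SE 0.51, edgeR adjusted p 8.13e-06). In Tmem173iΔmye mice 6 of 13 rose (median 2.40), 4 of them the same shared genes. The other two were Duox2, the epithelial hydrogen peroxide producing oxidase, from 220 ± 19.8 to 829 ± 360 CPM (1.91, SE 0.29, edgeR adjusted p 0.0123), and its maturation factor Duoxa2, from 24.2 ± 5.33 to 114 ± 33.3 CPM (2.23, SE 0.26, edgeR adjusted p 0.00352).

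Between colitic genotypes 3 IL-22 targets (S100a8, Lcn2 and S100a9) were called lower and 1 was called higher in Tmem173iΔmye mice. The higher gene was Il18, an IL-1 family cytokine of epithelium, at 96.8 ± 60.2 CPM against 24.0 ± 5.83 CPM (2.004, SE 0.41, edgeR adjusted p 0.0423). The median of the list was -0.25, against 0.02 over all genes. Called or not, 6 of the 13 genes were higher and 7 lower. S100a8, Lcn2 and S100a9 are also on the IL-17 target list. S100a8 and S100a9 are neutrophil markers too, and the part of neutrophils was not tested.

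Genes induced by IL-10 in myeloid cells rose in 6 of 8 cases in Tmem173fl/fl mice (median 1.16) and in 3 of 8 in Tmem173iΔmye mice (median 0.92). Nfil3, a transcription factor, rose in both (2.60, SE 0.16, edgeR adjusted p 2.66e-06, and 1.52, SE 0.25, 0.0157), and between colitic genotypes it alone was called, at 39.2 ± 9.65 CPM in Tmem173iΔmye against 81.3 ± 10.2 CPM (-1.06, SE 0.22, edgeR adjusted p 0.0430). Il1rn, the IL-1 receptor antagonist, also rose in both (1.21, SE 0.21, edgeR adjusted p 0.00165, and 1.68, SE 0.27, 0.0134). Il10rb, the receptor chain shared by IL-10 and IL-22, was at 43.5 ± 1.42, 46.0 ± 2.78, 44.1 ± 0.667 and 53.5 ± 4.57 CPM in Tmem173fl/fl and Tmem173iΔmye mice without DSS and then in the same genotypes with it, and was called in no comparison by edgeR.

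Upstream of the type 17 cytokines, 9 of 17 inducers and transcription factors rose with DSS in Tmem173fl/fl mice. The smallest p belonged to Il1r1 (2.96, SE 0.16, edgeR adjusted p 1.69e-06), Il6 (7.99, SE 0.67, 1.78e-05), Rora (1.82, SE 0.18, 4.34e-05) and Maf (1.85, SE 0.19, 5.49e-05). Il1r1 (1.49, SE 0.23, edgeR adjusted p 0.0114) rose in Tmem173iΔmye mice, as did Il6 (edgeR adjusted p 0.000814), from 2 to 217 counts (ratio 116, exact 95% counting interval 31.7 to 964). With DSS Il6 (-2.36, SE 0.46, edgeR adjusted p 0.0346) and Il1r1 (-1.28, SE 0.23, 0.0291) were lower in Tmem173iΔmye than in Tmem173fl/fl colon.

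**Figure D4:**
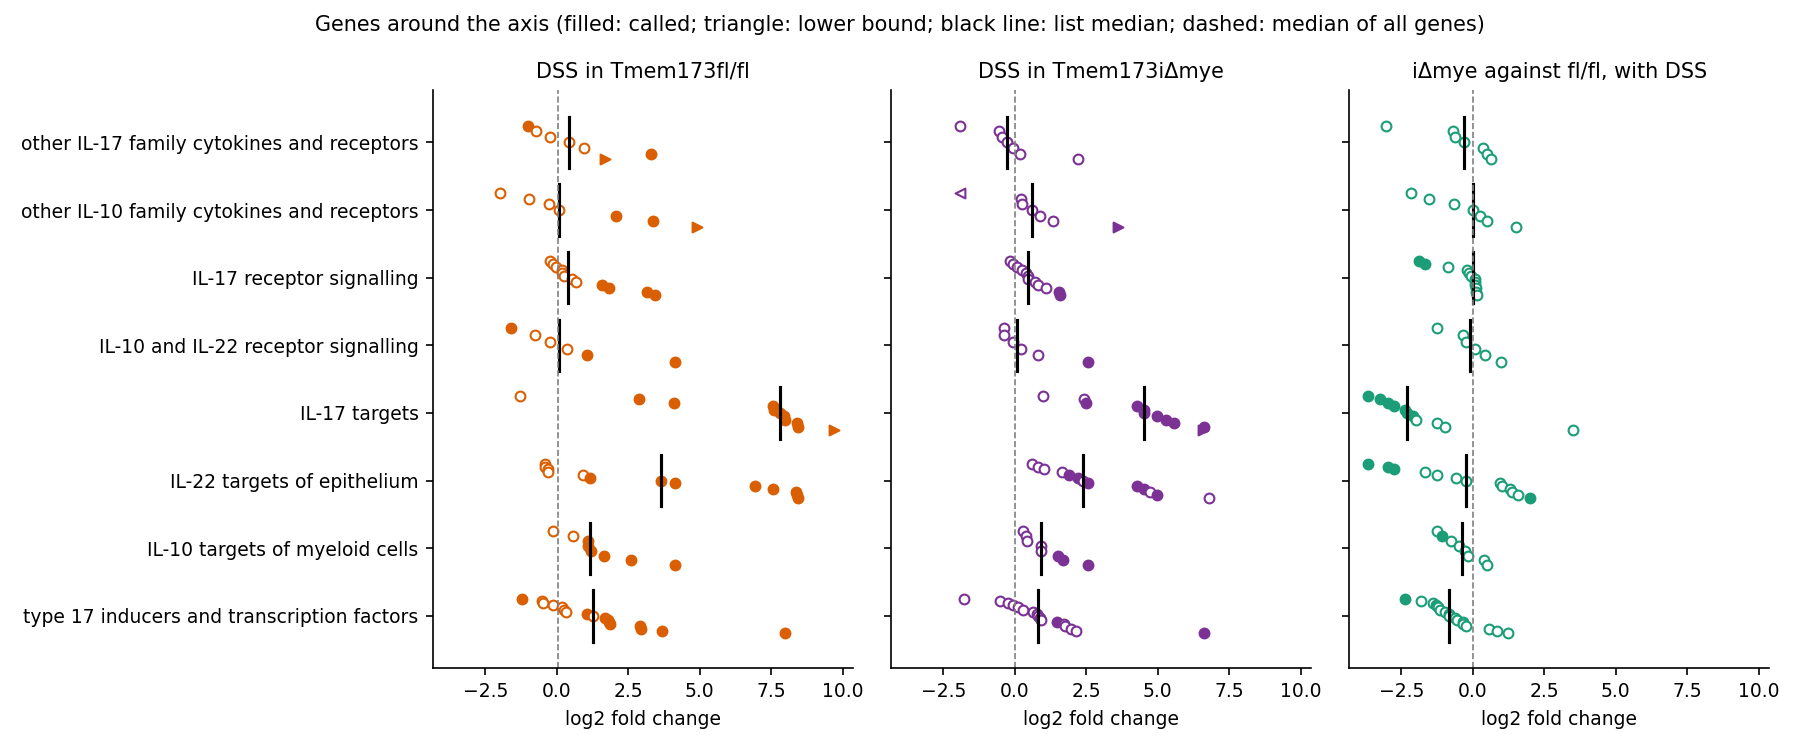
Log2 fold change (horizontal axis; edgeR) of each tested gene of 8 pathway lists (rows) for DSS in each genotype and for genotype with DSS. Filled symbols were called, triangles are bounds where 1 group had 0 counts, black lines are list medians and dashed lines the median of all genes. The medians of the IL-17 targets were 7.80, 4.52 and -2.31.

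The genes most like each member over the 12 libraries, by Pearson r of log2(CPM + 0.5), describe how the members varied. The libraries share a group structure, so such values carry no test. Il10ra was most like Pld4, Irf5 and Cxcl16 (r 0.98, 0.97 and 0.97), and Il17ra most like Nfkbie, Pstpip1 and Napsa (0.97, 0.96 and 0.96). Il17rc was most like Phlpp2, Nup50 and Rab11fip4 (0.99, 0.98 and 0.98), Il22ra1 most like Ephb2 and Myo7b (0.96 and 0.95), and Il22ra2 most like E2f4, Smarcd2 and Caskin2 (0.95, 0.95 and 0.95).

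For the cytokine genes likeness rests on few counts. Il17f was most like Appl1, Ptk6 and Duox2 (0.90, 0.88 and 0.88) and Il10 most like Gm10353, Ddx28 and AC121151.1 (0.94, 0.92 and 0.90). The nearest genes of Il22 were Gm5834, Tnfsf13b and Mup5 (0.96, 0.95 and 0.93), of which Gm5834 and Mup5 never exceeded 6 and 3 counts. Those of Il17a were Gm48273, Lmo4 and Mxra8os (0.95, 0.92 and 0.92), of which Gm48273 never exceeded 6 counts. Among the members, Il17ra and Il10ra varied together (0.89), as did Il17f and Il22 (0.87) and Il17rc and Il22ra2 (0.84), while Il17rc and Il10ra varied oppositely (-0.78).

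In the genome (GRCm38), Il17a (ENSMUSG00000025929, chromosome 1, 20730905 to 20734496), Il17f (ENSMUSG00000041872, chromosome 1, 20777146 to 20790617) and Il10 (ENSMUSG00000016529, chromosome 1, 131019845 to 131024974) share a chromosome. Il22 (ENSMUSG00000074695, 118204942 to 118210047) and Il22ra2 (ENSMUSG00000039760, 19621998 to 19634681) are on chromosome 10. Il17ra (ENSMUSG00000002897, 120463247 to 120487559) and Il17rc (ENSMUSG00000030281, 113471427 to 113483140) are on chromosome 6. Il22ra1 (ENSMUSG00000037157) is on chromosome 4 at 135728172 to 135752140, and Il10ra (ENSMUSG00000032089) on chromosome 9 at 45253837 to 45269149. Of the 9 genes only Il10ra overlaps other annotated features, Gm20612 and Mir7086, whose reads cannot be separated from it where strand was not used.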

How the data were processed

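Raw counts, whole numbers with no normalization, were deposited by the authors for every gene and library. The authors also deposited FPKM values, scaled by gene length and library size. Per the submitters' processing notes the tools included CASAVA 1.8, fastp, HISAT2 2.0.5, featureCounts 1.5.0-p3 and DESeq2 1.20.0, on GRCm38 (mm10). The strand setting is not given in the sources used here. The table also holds the authors' own pairwise comparisons (group values, log2 fold changes and p-values), which were not used.

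Sample titles gave the group and replicate number. Genes with at least 0.1 FPKM in at least 3 of 12 libraries were tested on counts with edgeR 4.0.16 (quasi-likelihood, TMM scaling, R 4.3.3), with only the groups compared in each fit and all 12 libraries in the interaction. P-values were adjusted by Benjamini-Hochberg over all 24102 genes. The SE is the log2 fold change divided by the square root of F. CPM are counts scaled by TMM. A group was at the floor with 3 counts or fewer in all, and exact intervals are at 95%. DESeq2 1.42.0, limma 3.58.1 on log2(FPKM + 0.1) and log2(FPKM + 1), no filter, other size factors, other thresholds, 1 fit of all groups, blocking on the replicate number, omitting the female-pattern libraries and omitting each library in turn were alternatives. The tests were tried on simulated data.

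Members, lists and marker genes were chosen with earlier results of these data known. All 9 members are named. From each pathway list up to 4 called genes with the smallest p are named, or the 2 with the highest level, and for each member the 3 genes most like it; some genes these rules select, and the marker list 1 of them dominates, are not reported here. Promoters came from RefSeq (GRCm38.p6) and the Il22 and Iltifb coding sequences from GENCODE transcripts (longest reading frame), and 5 of 9 members matched a promoter. As libraries are not stated to be separate animals, p-values measure the spread between these samples.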

Additional observations from a re-analysis of the deposited data

Results flagged for a closer look

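Il10 was singled out because its colitic libraries lay on opposite sides of the untreated mean in the genotypes. All 3 colitic Tmem173fl/fl libraries lay above the mean of their untreated group, and all 3 colitic Tmem173iΔmye libraries lay below the mean of theirs. The interaction was -1.98 on the log2 scale (SE 0.91, edgeR adjusted p 0.269), so the difference between the genotypes did not pass the threshold. In Tmem173iΔmye mice Il10 was not called (log2 fold change -0.50, SE 0.67, edgeR adjusted p 0.778) and the groups overlapped. The untreated mean there was set by library 2, at 2.63 CPM against 0.485 and 0.661 CPM, and without it the change was 0.63.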

How the results depend on the processing

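With DSS in Tmem173fl/fl mice 4 genes were called. It was 5 at a looser threshold the study states (unadjusted p of at most 0.05 with the same fold), Il17a being added. Limma on log2(FPKM + 1) called 2, and 2 to 5 were called when 1 library was left out. With DSS in Tmem173iΔmye mice none was called by edgeR, against 2 at the looser threshold and 1 without a filter (Il22). DESeq2 called 1 (Il22), a replicate block gave 2 (Il22 and Il10ra), and 0 to 2 were called when 1 library was left out. Between colitic genotypes it was 1 at the looser threshold, 1 without a filter and 1 by DESeq2 (Il10 each time), and 0 to 1 with 1 library left out. The study also states a cut on the adjusted p with a smaller fold for that comparison, and with no fold minimum at all 0 were called by edgeR (2 had an unadjusted p under 0.05). The looser threshold gave 1 between untreated genotypes (Il22ra2) and 1 in the interaction (Il10). Il10 with DSS in Tmem173fl/fl mice also lost its call under limma at either pseudocount (limma adjusted p 0.0590 and 0.0550), in 1 fit of all 12 libraries (0.0896), with the replicate block (0.0556) and without the libraries of female pattern (0.125). Over all genes, the 501 calls of DSS in Tmem173iΔmye mice became 62 and 58 by limma at pseudocounts of 0.1 and 1, 1137 by DESeq2, 981 without a filter, 981 in 1 fit and 1369 with the block, and the 678 between colitic genotypes became 140, 154, 1619, 1220 and 1492 under the first 5 of these. The 5422 of DSS in Tmem173fl/fl mice became 2848 by limma at a pseudocount of 1, and the 614 of the interaction 1364 by DESeq2 and 1228 without a filter. Between untreated genotypes 0 genes became 3 by DESeq2, 68 without a filter and 94 with the block. The cause of these changes was not tested.

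Deviations of same-numbered libraries from their group means correlated at -0.17 to 0.18, and those of differently numbered ones at -0.43 to 0.30. With 3 libraries a group, these values cannot decide whether the numbers mark pairs. The labels state no pairing, so the replicate block rests on the numbers alone. With it, values that turned sign were Il22ra1 with DSS in Tmem173iΔmye mice (0.35), Il22 (0.10) and Il10 (-0.058) between untreated genotypes, and Il10ra between colitic genotypes (0.0081) and in the interaction (0.049). Without the female-pattern libraries these were Il22ra1 with DSS in Tmem173iΔmye mice (0.35), Il22 (3.60) and Il10ra (-0.029) between untreated genotypes, Il10ra between colitic ones (0.17), and Il22 (-1.30), Il17ra (0.19) and Il10ra (0.19) in the interaction. Under limma, Il22 between untreated genotypes was 0.10 and 0.00033 at pseudocounts of 0.1 and 1, and Il10 was -0.053 at 0.1. None of these was called.

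With each library left out in turn, signs turned for Il10 (-0.88 to 0.63) and Il22ra1 (-0.31 to 0.18) with DSS in Tmem173iΔmye mice. Between untreated genotypes they turned for Il22 (-1.33 to 3.46), Il10 (-1.0045 to 0.82), Il17rc (-0.27 to 0.040), Il22ra1 (-0.27 to 0.095) and Il10ra (-0.083 to 0.24). Between colitic genotypes they turned for Il22ra2 (-0.32 to 1.14) and Il10ra (-0.49 to 0.17), and in the interaction for Il17f (-0.22 to 1.92), Il22 (-1.68 to 3.20) and Il10ra (-0.51 to 0.12). Il17rc and Il22ra2 with DSS in Tmem173fl/fl mice were called under all 16 alternatives. At the depth of these libraries Il17a, Il17f and Il22 rest on at most 32 counts per library, so differences between genotypes could be missed.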
